A study of Mus musculus with 6 samples.

Results

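The endoplasmic reticulum (ER) is the compartment in which cells thread, fold, glycosylate and inspect the proteins they secrete. The genes described here were 48 mouse genes of that machinery, chosen by symbol and function: 6 chaperones of the ER lumen, 6 co-chaperones and secreted stress factors, 5 disulfide or prolyl isomerases, 5 genes of the signal recognition particle and its receptor, 9 of the translocon, 3 of the signal peptidase, 5 of the oligosaccharyltransferase, 6 of ER-associated degradation and 3 sensors or transcription factors. All 48 were found, in 78 of the 30146 probe rows and among the 21400 gene symbols of the deposited table.

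RNA levels were measured in mouse pancreatic islets kept in culture for 48 h with cisplatin at 10 uM, a platinum drug that crosslinks DNA, or with its vehicle, saline at 0.9%. Both groups were islets of 3 male wild-type C57Bl/6 mice, in complete RPMI medium, and the islets of each mouse were split between cisplatin and vehicle, so that libraries 1, 2 and 3 of each group come from mouse 1, 2 and 3. The assay, TempO-Seq, ligates 2 neighbouring detector oligonucleotides on a target RNA in lysate and counts the ligated product, so that each row of the table reports 1 short stretch of 1 transcript. An islet holds several cell types, so each value is a sum over cells, and fewer cells of a type and less RNA per cell cannot be told apart.

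In secretory cells, the signal recognition particle catches a signal peptide as it leaves the ribosome and brings the ribosome to its receptor on the ER. The nascent chain then passes the Sec61 channel with help from the translocon-associated proteins, loses its signal peptide and gains sugar chains. Chaperones such as BiP and GRP94 and the protein disulfide isomerases fold it, and chains that do not fold are extracted and degraded. The membrane sensors IRE1, ATF6 and PERK read the folding load and raise the genes of this machinery. Pancreatic beta cells rely on it heavily, because proinsulin is made in large amounts and needs its disulfide bonds formed in the ER.

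Library totals were 1116916 to 1366829 counts with cisplatin and 1470227 to 2272276 with vehicle. Cisplatin library 3 stood apart, with 28.6% of its counts in mitochondrially encoded genes, against 2.83% and 3.11% in the other cisplatin libraries and 0.188% to 1.74% in vehicle libraries. Beta cell markers were abundant in both groups, at a summed 67100 to 148000 CPM, that is counts per 1e6 of the scaled library size, with cisplatin and 94500 to 168000 with vehicle, although the rows of Pdx1 (6 and 34 counts in all) and Slc30a8 (1 and 2) were near 0. Acinar markers summed to 9.65 to 32.1 CPM with cisplatin and 5.68 to 16.1 with vehicle, and 3 of their 11 genes had no count. Levels of other cell types moved with the treatment. Alpha cell markers summed to 8290 to 11200 CPM with cisplatin, against 19000 to 52200 with vehicle (3 of 6 tested genes called lower), and macrophage markers to 13.5 to 86.9 CPM, against 157 to 305 (5 of 6 tested genes called lower, all 6 of which passed the low-count filter through the vehicle libraries alone). Of 8 tested beta cell markers 4 were called lower. The sums of delta and PP cell markers (1600 to 3150 against 2020 to 5290 CPM), duct markers (1340 to 2350 against 1200 to 1610), endothelial markers (102 to 139 against 75.8 to 116) and stromal markers (37.2 to 86.9 against 57.5 to 236) overlapped between cisplatin and vehicle. Within these lists Pyy, the endothelial genes Kdr and Eng and the pericyte gene Rgs5 were called lower, and the endothelial gene Esam was called higher. Kdr, Eng and Rgs5 also passed the filter through vehicle alone. The part of these marker levels and of the mitochondrial counts in the results on ER genes was not tested.

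In islets exposed to cisplatin 10 of the 43 tested genes (23.3%) were called lower than in vehicle islets of the same mice, where 13.9% of all 9381 tested rows were. Without mouse 3, 1 of 44 tested genes (2.27%) was called lower, where 5.98% of all rows were. The genes called lower with all libraries were Hsp90b1 and Hyou1 among the chaperones, the co-chaperone Dnajb11, the isomerase Pdia6, Srp54a and Srpr of the targeting step, Ssr1 of the translocon, Herpud1 and Derl1 of ER-associated degradation, and the transcription factor Xbp1. A single gene, Edem1 of the degradation pathway, was called higher. BiP itself, encoded by Hspa5 and the member that took the largest share of counts, was not called in its most abundant row, although a minor row of it was called lower.

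Each gene is represented by its row with the highest mean CPM, and "called" means an adjusted p under 0.05 in edgeR's quasi-likelihood test over all rows. Of the 48 genes 43 were tested, and Sec61a1, Sec63, Stt3a, Stt3b and Atf6 had too few counts. Beside the 10 genes called lower, 1 was called higher, where 11.1% of all rows were, and the other 32 were not called. At an unadjusted p under 0.05 in that test the number in either direction was 17. The share of all rows at that unadjusted threshold was not counted. The median log2 fold change (cisplatin over vehicle) of the 43 genes was -0.68, in a range of -3.07 to 1.02, against -0.07 over all tested rows; 35 values were negative. In 19 genes every cisplatin library lay below every vehicle library, as it did in 24.3% of all rows, and in 1 gene every cisplatin library lay above, as in 19.1% of all rows. For 6 genes the low-count filter was passed through the vehicle libraries alone (Manf, Srp9, Srp54a, Ssr1, Ssr2 and Ern1), so the counts and medians describe the genes tested and not the whole list.

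**Figure D1:**
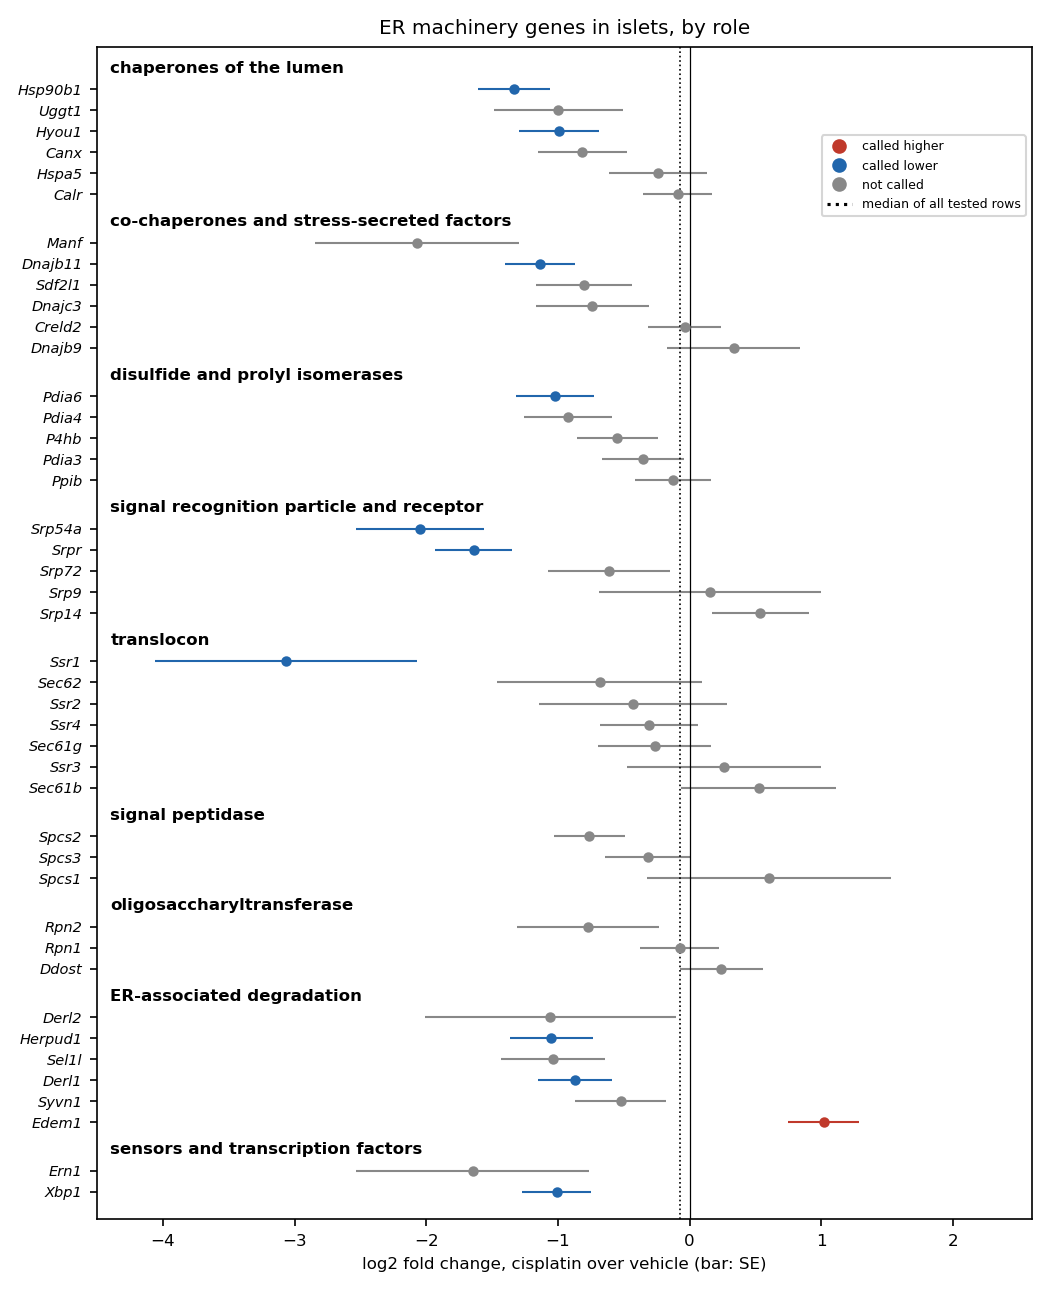
Log2 fold changes (cisplatin over vehicle, horizontal axis) of the 43 tested ER machinery genes, grouped by role, each point 1 gene and each bar its standard error. The 10 genes called lower lie between -0.87 and -3.07, Edem1 at 1.02 is the single gene called higher, and the dotted line marks the median of all tested rows at -0.07.

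The number of genes called lower depended on single libraries. Without cisplatin library 1, 2 or 3 it was 12 (26.7%), 8 (17.4%) or 6 (13%), where 12.5%, 11% and 11.5% of all rows were called lower. Without vehicle library 1, 2 or 3 it was 4 (8.89%), 7 (15.9%) or 5 (11.6%), where 5.82%, 10.5% and 7.28% of all rows were. Without vehicle library 1 edgeR called 0 genes higher, where 5.05% of all rows were called higher. In that fit 13 genes had an unadjusted p under 0.05 in either direction, with no share of all rows to set beside it. Without mouse 1 or 2 the number called lower was 6 (13.6%) or 5 (11.4%), where 8.07% and 8.22% of all rows were. Without mouse 3, the mouse of the library with the high mitochondrial share, Srpr alone was called, and the share of ER genes called lower was then below that of all rows. When libraries were scaled by their totals alone the median of all rows was -0.54, and 17 genes were called lower and 0 higher. That scale also moved the split of all called rows, of which 81.5% were lower, against 55.6% with trimmed mean of M values (TMM) scaling. Alternatives were followed gene by gene for the ER machinery and, of the other ER genes described below, for Sil1, Ero1lb, Pdia5, Ube2g1 and Ube2j2. Of the called genes among these, Srpr, Sil1 and Ero1lb kept their call in all 20 alternatives run. Calls of the remaining other ER genes were not followed in this way.

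The 78 rows took 1.3%, 0.772% and 0.919% of all counts in the cisplatin libraries of mice 1, 2 and 3, and 1.65%, 1.67% and 2.05% in their vehicle libraries. Leaving Hspa5 out, cisplatin libraries gave 0.589%, 0.417% and 0.325%, against 0.861%, 0.828% and 0.907% in vehicle libraries. Cisplatin libraries were below vehicle libraries in both shares. On the TMM-scaled levels used for single genes the groups overlapped, with summed levels of 12250, 9900 and 13470 CPM in cisplatin libraries and 13060, 15510 and 18300 CPM in vehicle libraries. The percentages are shares of everything counted, so the mitochondrial rise in cisplatin library 3 lowers its share.

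Among the 6 chaperones of the ER lumen 2 (33.3%) fell and none rose, where 13.9% of all rows fell and 11.1% rose. All 6 values were negative, with a median of -0.9. Hsp90b1, which encodes GRP94, the HSP90 of the ER, had 120.9, 125.5 and 91.2 CPM in the cisplatin libraries of mice 1, 2 and 3, against 282.2, 244.3 and 325.9 CPM in their vehicle libraries. Its cisplatin values lay below all vehicle values, and it fell by 1.34 ± 0.28 (SE) on the log2 scale (adjusted p = 0.00339). Hyou1, a large chaperone that exchanges the nucleotide of BiP, had 169.1, 133.1 and 90.1 CPM with cisplatin, against 287.4, 199.5 and 295.6 CPM with vehicle. It fell by 0.99 ± 0.30 (adjusted p = 0.0288), in all 3 mice and without overlap. Its call was lost without cisplatin library 2 (adjusted p = 0.0677) or 3 (0.0845) and without vehicle library 1 (0.137) or 3 (0.113), while that of Hsp90b1 held without any 1 library.

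Hspa5, the gene of BiP, the HSP70 that binds nearly every chain entering the ER, had 5975, 4233 and 8300 CPM with cisplatin, against 5678, 6816 and 9393 CPM with vehicle. The groups overlapped, since the cisplatin library of mouse 1 was above its vehicle library, and the difference of -0.24 ± 0.37 was not called (adjusted p = 0.688). Calr, the soluble lectin chaperone calreticulin, had 480.3, 595.1 and 707.8 CPM with cisplatin, against 603.6, 634.5 and 659.2 CPM with vehicle, and its difference of -0.09 ± 0.26 was not called either. Canx, its membrane-bound counterpart calnexin, averaged 80.3 ± 32.5 CPM with cisplatin and 141.9 ± 5.8 CPM with vehicle (SD, n = 3 each), a difference of -0.82 ± 0.34 (adjusted p = 0.0928). Uggt1, the folding sensor that sends glycoproteins back to these lectins, differed by -1.0 ± 0.49 and was not called. Neither Canx nor Uggt1 overlapped between the groups.

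**Figure D2:**
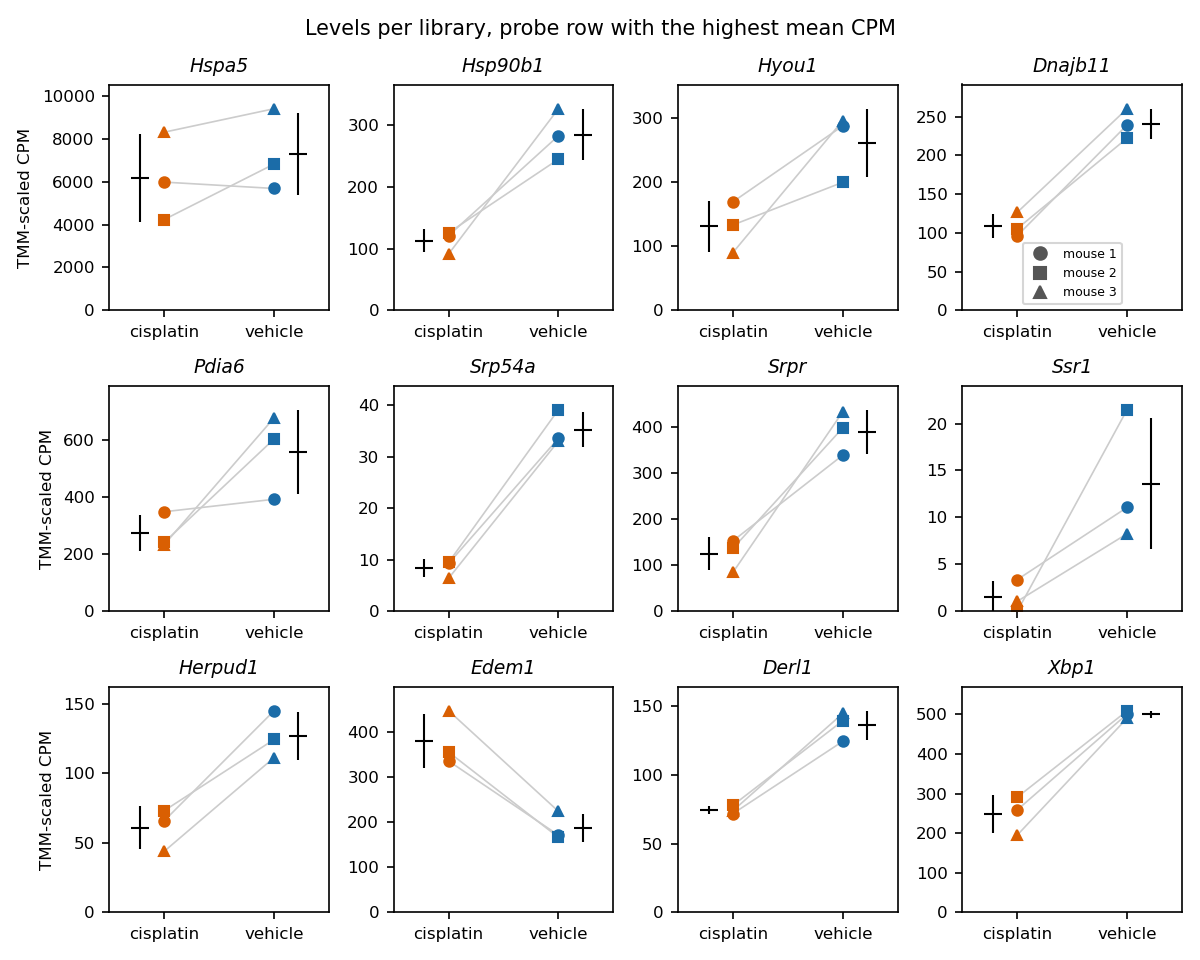
Levels in TMM-scaled CPM (vertical axes, from 0) of 12 ER machinery genes in cisplatin and vehicle libraries, with a symbol for each mouse, grey lines joining the libraries of 1 mouse, and a cross for the mean with its SD over 3 libraries. Shown are Hspa5 and the 11 genes that were called, so these genes were picked by their result. The groups overlap in Hspa5 alone, and Edem1 is the single gene shown whose cisplatin libraries lie above its vehicle libraries. Every cisplatin library lay below every vehicle library in 24.3% of all tested rows, and above in 19.1%.

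Of the 6 co-chaperones and secreted stress factors 1 (16.7%) fell, a share near the 13.9% of all rows, and none rose, with a median of -0.77. Dnajb11, a J-domain protein that hands chains to BiP, had 96.4, 105.5 and 126.5 CPM with cisplatin, against 239.2, 222.2 and 260.2 CPM with vehicle. It fell in all 3 mice, by 1.14 ± 0.27 (adjusted p = 0.00738), and the call was lost without vehicle library 1 (adjusted p = 0.0598). Creld2, a disulfide isomerase-like protein that is secreted under ER stress, had 213.9, 223.4 and 293.8 CPM with cisplatin, against 267.2, 189.4 and 292.4 CPM with vehicle. Those values overlap throughout, and the difference of -0.04 ± 0.28 had an adjusted p of 0.943. Manf, a secreted factor that protects beta cells in mice, had 2.54, 2.85 and 4.29 CPM with cisplatin, against 10.3, 20.8 and 10.2 CPM with vehicle. These values stand for 10 counts with cisplatin and 85 with vehicle, and the difference of -2.07 ± 0.77 missed the threshold (adjusted p = 0.0638). Sdf2l1 and Dnajc3, 2 partners of BiP, differed by -0.80 ± 0.37 and -0.74 ± 0.43, and Dnajb9, a further J-domain partner, by 0.34 ± 0.51, none of them called.

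Among the 5 isomerases 1 (20%) fell, where 13.9% of all rows fell, and none rose, and all 5 values were negative, with a median of -0.55. Pdia6, a protein disulfide isomerase that also acts on the sensor IRE1, had 348.4, 241.5 and 233.8 CPM with cisplatin, against 392.1, 603 and 676.9 CPM with vehicle. The cisplatin library of mouse 1 came close to its vehicle library and the other 2 mice differed more, so that the difference of -1.02 ± 0.30 (adjusted p = 0.0224) was not called without cisplatin library 2 (0.072) or 3 (0.0646) or vehicle library 2 (0.0572) or 3 (0.109). Pdia4, another member of that family, differed by -0.93 ± 0.33 without overlap and was just outside the threshold (adjusted p = 0.057). It was called with the mouse as a block (adjusted p = 0.0388). P4hb, the classical protein disulfide isomerase, had 105.7, 97 and 74 CPM with cisplatin, against 106.3, 177.4 and 122.4 CPM with vehicle, and its difference of -0.55 ± 0.31 was not called. Pdia3, the isomerase that works with calnexin and calreticulin, had 643.5, 474.4 and 299.2 CPM with cisplatin, against 458.5, 712.2 and 642.7 CPM with vehicle, and mouse 1 had the higher value with cisplatin. Its difference was -0.35 ± 0.31. Ppib, the prolyl isomerase cyclophilin B, had 192.8, 141.6 and 222 CPM with cisplatin, against 178.3, 171.7 and 256.2 CPM with vehicle, which gave -0.13 ± 0.29.

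Of the 5 genes of the targeting step Srpr and Srp54a (40%) fell and none rose, where 13.9% of all rows fell and 11.1% rose. The median of the 5 genes was -0.61. Srpr, the alpha subunit of the signal recognition particle receptor on the ER membrane, had 153.1, 136.9 and 84.7 CPM with cisplatin, against 339.2, 398.4 and 433.3 CPM with vehicle. Every cisplatin library was far below every vehicle library, and the gene fell by 1.64 ± 0.29 (adjusted p = 0.00139). Srp54a, the GTPase subunit that binds the signal peptide, had 9.3, 9.51 and 6.43 CPM with cisplatin, against 33.6, 39.1 and 33.1 CPM with vehicle. It fell by 2.05 ± 0.48 (adjusted p = 0.00759), lost its call among the left-out libraries and mice only without mouse 3 (adjusted p = 0.0807), and has the near-identical copies Srp54b and Srp54c, so it is uncertain which copy its counts come from. The other subunits of the particle were not called in their most abundant rows. Srp72, a scaffold subunit, differed by -0.61 ± 0.46, and Srp9, of the domain that pauses translation, by 0.15 ± 0.84. The Srp9 value rested on the cisplatin library of mouse 1, which had 38.9 CPM against 4.75 and 2.15 in the other cisplatin libraries, and was -1.89 without it. Srp14, which binds Srp9, differed by 0.53 ± 0.37.

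Of the 9 translocon genes 7 were tested, 1 (14.3%) fell, a share near that of all rows, and none rose, with a median of -0.31. Ssr1, the alpha subunit of the translocon-associated protein complex, which helps preproinsulin enter the ER, had 3.38, 0 and 1.07 CPM with cisplatin, against 11.1, 21.5 and 8.27 CPM with vehicle. These values stand for 5 counts with cisplatin and 83 with vehicle. The difference of -3.07 ± 1.0 (adjusted p = 0.0369) was the largest among the called genes of the machinery. It was not called without any 1 of cisplatin libraries 2 and 3 and vehicle libraries 1, 2 and 3 (adjusted p = 0.0791, 0.0864, 0.143, 0.163 and 0.0907), nor with the mouse as a block (0.0761), and it was -4.45 without cisplatin library 1. The other subunits of the complex were not called: Ssr4 had 98.1, 62.7 and 39.7 CPM with cisplatin, against 67.2, 102.3 and 80.7 CPM with vehicle, and differed by -0.31 ± 0.37. Ssr2 differed by -0.43 ± 0.71, and by -1.54 without cisplatin library 2, and Ssr3 by 0.26 ± 0.74.

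The subunits of the Sec61 channel gave few counts. Sec61b had 39.8, 12.4 and 12.9 CPM with cisplatin, against 9.49, 18.9 and 17.3 CPM with vehicle. Its difference of 0.52 ± 0.59 came from mouse 1 and was -0.17 without cisplatin library 1. Sec61g, the gamma subunit, differed by -0.27 ± 0.43 and Sec62, a channel partner used by short precursors, by -0.68 ± 0.78. The Sec62 value was -1.50 without cisplatin library 2. The most abundant row of Sec61a1, the pore itself, had 0 counts with cisplatin and 14 with vehicle, too few to test, and was at least 2.22-fold lower with cisplatin, taking 3 counts in the group as the floor. With the counting error of the vehicle counts included, the exact 95% interval of that ratio begins at 1.58. Sec63 had 0 and 3 counts. Floors and intervals cover counting error only.

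Neither the signal peptidase nor the oligosaccharyltransferase held a called gene in its most abundant rows. Spcs2, a subunit of the signal peptidase, had 259.6, 267.1 and 231.6 CPM with cisplatin, against 317.4, 508.2 and 461.3 CPM with vehicle, and did not overlap between groups. Its difference of -0.76 ± 0.27 was just outside the threshold (adjusted p = 0.0547) and inside it with DESeq2 (0.0356) and with the rows of each gene summed (0.0335). Spcs3 differed by -0.32 ± 0.33, and Spcs1 by 0.60 ± 0.93. The Spcs1 value was 1.30 without cisplatin library 1 and -0.29 without cisplatin library 2. Rpn1, ribophorin I, which presents chains to the sugar transferase, had 461.7, 350.8 and 648.8 CPM with cisplatin, against 472.8, 420.5 and 646.2 CPM with vehicle. The libraries of each mouse were close together, at a difference of -0.08 ± 0.30. Rpn2 differed by -0.77 ± 0.54, and by -1.41 without cisplatin library 2, and Ddost by 0.24 ± 0.31. The catalytic subunits Stt3a and Stt3b were not tested, and their most abundant rows held at most 10.1 CPM in any library.

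ER-associated degradation held changes in both directions. Herpud1 and Derl1 (33.3% of the 6 genes) fell and Edem1 rose, where 13.9% of all rows fell and 11.1% rose. The median of the 6 genes was -0.95. Edem1, a mannosidase-like protein that picks misfolded glycoproteins for degradation, had 334.9, 354.6 and 446.1 CPM with cisplatin, against 170.8, 166 and 223.5 CPM with vehicle. It rose in all 3 mice, by 1.02 ± 0.27 (adjusted p = 0.0136), and no cisplatin library overlapped a vehicle library. The call ended without vehicle library 1 (adjusted p = 0.0906) and without mouse 1 (0.0888), 2 (0.0674) or 3 (0.0737). It also ended on the scale of library totals alone (0.228), on which the value was 0.53.

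Herpud1, a membrane scaffold that gathers the degradation complex, had 66, 73.2 and 44 CPM with cisplatin, against 145.1, 124.4 and 111.4 CPM with vehicle. It fell by 1.05 ± 0.31 (adjusted p = 0.0256), and the call was lost without cisplatin library 3 (0.0729), vehicle library 1 (0.148) or vehicle library 3 (0.0604). Derl1, part of the channel through which chains leave the ER, had 71.9, 78 and 74 CPM with cisplatin, against 124.5, 139.5 and 144.8 CPM with vehicle. Replicates lay close together, but the call of the difference, -0.87 ± 0.28 (adjusted p = 0.0366), was lost without any 1 of the 6 libraries (adjusted p = 0.12, 0.0643 and 0.0635 for cisplatin 1 to 3, and 0.131, 0.0623 and 0.149 for vehicle 1 to 3) and with the mouse as a block (0.0588). Sel1l, the adaptor of the ubiquitin ligase, had 41.4, 34.2 and 18.2 CPM with cisplatin, against 80.2, 53 and 60.6 CPM with vehicle, and its difference of -1.04 ± 0.39 was not called (adjusted p = 0.068). It was called without cisplatin library 1 (0.0455), and with its rows summed (-1.32, adjusted p = 0.00824). Syvn1, the ligase itself, differed by -0.52 ± 0.34, and Derl2 by -1.06 ± 0.95. The Derl2 value was -1.81 without cisplatin library 1 and -0.12 without vehicle library 2.

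Of the 3 genes of sensors or transcription factors, Xbp1 and Ern1 were tested, and the activity of the sensors was not measured. Xbp1, whose mRNA is spliced by IRE1 to make a transcription factor of ER genes, had 258.8, 290.9 and 195.2 CPM with cisplatin, against 500.8, 508.9 and 490.4 CPM with vehicle. The vehicle libraries were nearly level and every cisplatin library was below them. In this row, its most abundant, Xbp1 fell by 1.01 ± 0.26 (adjusted p = 0.0129), which was no longer called once vehicle library 1 was left out (0.0758). The minor tested row of Xbp1 was not called, at -0.20 ± 0.46. Spliced and unspliced forms could not be told apart, because the positions of the oligonucleotides were not used here. Ern1, the gene of IRE1 alpha, had 11.8, 0 and 3.22 CPM with cisplatin, against 12.3, 24 and 13 CPM with vehicle. Its difference of -1.65 ± 0.89 was not called (adjusted p = 0.194), but without cisplatin library 1, which was level with its vehicle library, it was -3.24 and called (adjusted p = 0.0206). Without cisplatin library 2 it was -1.08 (0.332), and without mouse 2 it was -0.72 (0.589). With the rows of Ern1 summed it was -1.79 and called (0.0447). The most abundant row of Atf6 had no count in any cisplatin library and 32, 13 and 11 counts in the vehicle libraries, which is at least 8.88-fold lower with cisplatin at the same floor, with an exact 95% interval of the ratio that begins at 6.99. It did not pass the low-count filter, and it was called with no filter (adjusted p = 0.00909).

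Several genes were read by more than 1 row, so rows of 1 gene could be compared within the same libraries. Of the 48 genes 24 had at least 2 rows, up to 4, and 14 had at least 2 tested rows. In 13 of these 14 the rows had the same sign, the exception being Creld2 near 0. In 8 of the 14 they had the same call. How often rows of 1 gene agree over all genes was not counted. Over all 58 tested rows 14 (24.1%) were called lower and 2 higher, beside 13.9% and 11.1% of all tested rows. The filter was passed through vehicle alone by 7 of the 58. Without vehicle library 1 these numbers were 5 and 0, and without mouse 3 they were 1 and 0.

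The rows disagreed most in Srp14 and Hspa5. The minor row of Srp14 had 10.2, 23.8 and 20.4 CPM with cisplatin, against 3.16, 3.79 and 2.36 CPM with vehicle, or 56 and 20 counts, and rose by 2.53 ± 0.71 (adjusted p = 0.0193). It was tested because of its cisplatin libraries alone, since its vehicle counts did not reach the filter. It was not called without cisplatin library 2 (0.0762) or 3 (0.0528), vehicle library 1 (0.0894) or 3 (0.111), or with the mouse as a block (0.0552). The least abundant tested row of Hspa5 had 33, 28.5 and 23.6 CPM with cisplatin, against 75.5, 62.5 and 106.7 CPM with vehicle. It fell by 1.52 ± 0.36 (adjusted p = 0.00814), and without vehicle library 3 it was not called (0.0694). Its middle row differed by -0.64 ± 0.34. Minor rows of Sel1l and Spcs3 also fell, by 1.82 ± 0.49 (adjusted p = 0.0152) and 1.49 ± 0.47 (0.0325), where the major rows were not called. The Sel1l row was not called without vehicle library 1 (0.0688) or 2 (0.0669). The Spcs3 row held its call among the single libraries only without cisplatin library 2 (0.0725 and 0.0994 without cisplatin 1 and 3, and 0.0698, 0.117 and 0.0577 without vehicle 1 to 3), and was -2.32 in that fit. For Hyou1 both rows fell. For Hsp90b1 and Xbp1 the major row fell and the minor row was not called, at -0.96 ± 0.37 and -0.20 ± 0.46; the minor row of Hsp90b1 was called with the mouse as a block (-1.07, adjusted p = 0.0464) and without cisplatin library 1 (0.00918), and that of Xbp1 was 0.16 without cisplatin library 3.

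**Figure D3:**
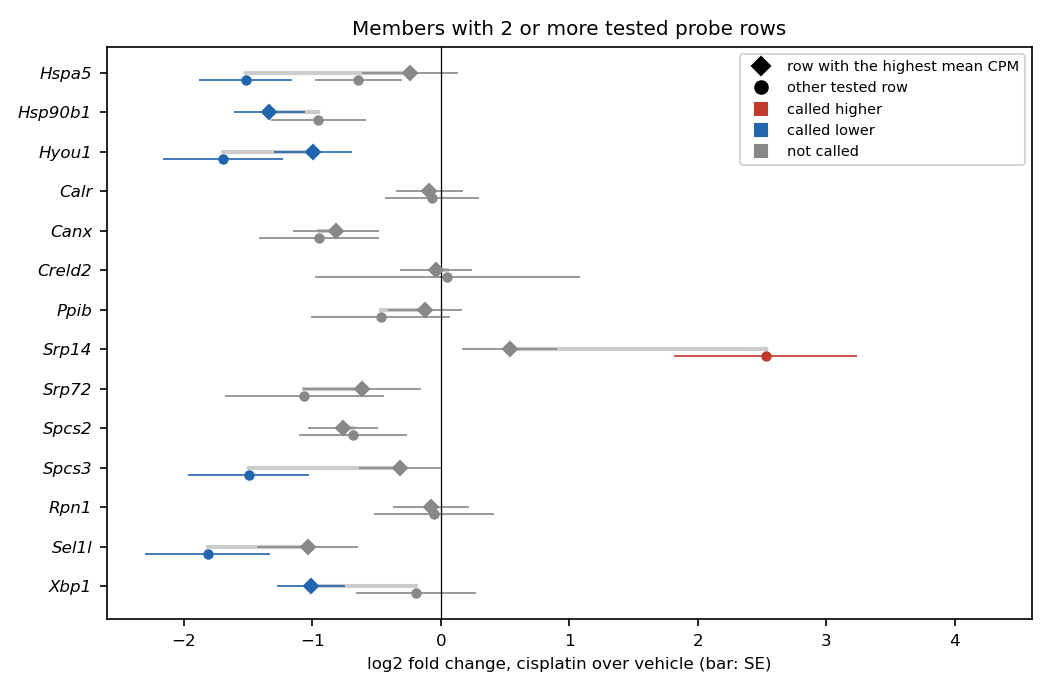
Log2 fold changes (cisplatin over vehicle, horizontal axis) of every tested row of the 14 genes with at least 2, with diamonds for the row with the highest mean CPM, circles for other rows, bars for the standard error and grey bands joining the rows of 1 gene. The rows lie on the same side of 0 in 13 genes, and the widest gaps are 1.99 in Srp14 and 1.28 in Hspa5.

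Many ER chaperone genes carry a promoter element through which the sensors act, the ER stress response element, bound by ATF6 and XBP1 together with NF-Y. RefSeq promoters (GRCm38.p6, from 250 bases before to 50 after a start) were at hand for 41 of the 48 genes and were searched on both strands for the element (ERSE), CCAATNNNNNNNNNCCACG, and for its relative ERSE-II, ATTGGNCCACG. ERSE was found in 8 of the 41 genes (19.5%), against 39 of 32851 mouse promoters (0.119%), and ERSE-II in 2 of the 41 (4.88%), against 12 of the 32851 (0.0365%). The list was chosen by function, and a match says nothing of binding in these islets. No gene held both elements. These stretches were chosen to set 3 genes that fell beside 3 that were not called, and the fixed bases of each element are in capitals, on the strand of the gene.
Hsp90b1 (chr10:86705518-86705671, minus strand): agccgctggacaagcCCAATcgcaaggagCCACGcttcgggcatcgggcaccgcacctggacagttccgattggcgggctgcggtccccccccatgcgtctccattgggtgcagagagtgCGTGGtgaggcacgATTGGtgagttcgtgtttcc
Pdia6 (chr12:17266476-17266524, plus strand): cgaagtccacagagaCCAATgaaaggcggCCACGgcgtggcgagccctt
Herpud1 (chr8:94386362-94386402, plus strand): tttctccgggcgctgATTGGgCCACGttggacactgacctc
Hspa5 (chr2:34772010-34772058, plus strand): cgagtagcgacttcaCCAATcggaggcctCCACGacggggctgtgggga
Calr (chr8:84847060-84847108, minus strand): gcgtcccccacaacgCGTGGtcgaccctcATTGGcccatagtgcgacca
Creld2 (chr15:88819505-88819553, plus strand): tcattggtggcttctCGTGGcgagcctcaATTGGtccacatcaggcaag

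Genes with either element were found both among those that fell and among those that were not called. Hsp90b1, with 2 matches that begin 212 and 107 bases before the start, fell by 1.34, and Pdia6, with 1 match 98 bases before it, fell by 1.02. Hspa5, Calr and Creld2, whose matches begin 65, 162 and 126 bases before the start, differed by -0.24, -0.09 and -0.04. Canx, Dnajc3 and Syvn1 also held ERSE and were not called. ERSE-II was found in Herpud1, beginning 52 bases before the start, and in Dnajb11, inside the stretch after the start (bases 8 to 18). Both genes fell. The 10 genes with either element were all tested, 4 of them were called lower and 0 higher, and their median was -0.78 (-1.34 to -0.04). Of the 31 genes with a promoter and neither element 28 were tested, 4 were called lower and 1 higher, and their median was -0.58. Over all tested rows 13.9% were called lower and 11.1% higher, and the median was -0.07. The calls of Pdia6, Herpud1 and Dnajb11 were each lost in at least 1 fit without a single library. The difference between genes with and without an element was not tested.

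The tested genes of the machinery had a shorter median genomic span than all tested genes. Their values were set beside their span because the fold changes of all tested genes varied with span. The span is the length of the gene in RefSeq, with a median of 12.9 kb for the 43 tested ER genes and 23.2 kb for all tested genes. The 5 ER genes that were not tested spanned 15.2 kb (Sec61a1) to 164 kb (Atf6). Among all 7067 tested genes with a span, those under 12.9 kb (2282 genes) had a median log2 fold change of 0.60, with 2.45% called lower and 24.3% higher, and longer ones (4785 genes) a median of -0.33, with 19.4% called lower and 6.35% higher. Tested ER genes under that span (21 genes) had a median of -0.27, with 3 called lower and 0 higher, and longer ones (22 genes) a median of -0.84, with 7 called lower and 1 higher. In both spans the median of the ER genes was thus below that of all tested genes. Spearman's rho between span and log2 fold change was -0.362 across the 43 tested ER genes and -0.566 across all tested genes; genes are not independent replicates. With GENCODE spans, which are much longer for Manf and Srpr, rho across the ER genes was -0.577. Individual genes went against this order: Xbp1 (5.35 kb) and Herpud1 (8.94 kb) are short and fell, and Edem1 (35.3 kb) is long and rose. Srpr, which fell, is short in RefSeq (5.8 kb) but not in GENCODE (47.8 kb).

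**Figure D4:**
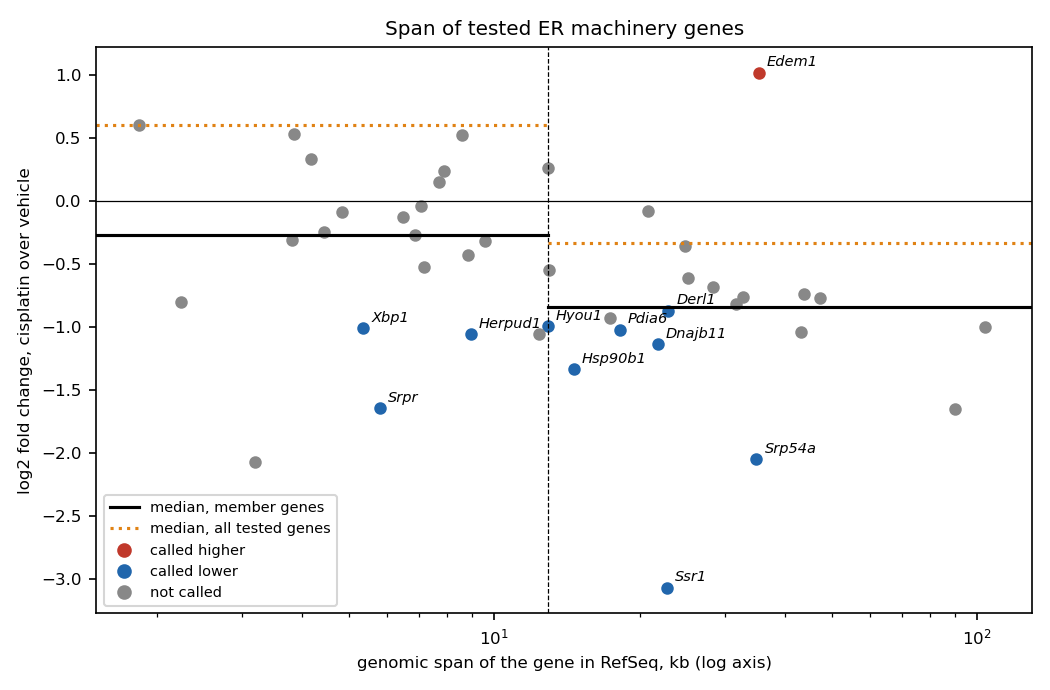
Log2 fold change (cisplatin over vehicle, vertical axis) of the 43 tested ER machinery genes against the genomic span of the gene in RefSeq (kb, log axis), with called genes named, the dashed line at 12.9 kb and medians on either side for the ER genes (solid) and for all tested genes (dotted). The ER medians are -0.27 and -0.84 and lie below those of all tested genes, 0.60 and -0.33.

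Other genes of the ER were read from a list of 102 further genes in the table, of which 69 were tested. Of these 1 rose and 12 (17.4%) fell, where 11.1% of all rows rose and 13.9% fell, with a median of -0.20. At an unadjusted p under 0.05 in edgeR's test there were 20, with no share of all rows to set beside it. Leaving out vehicle library 1 or 3, 5 were called lower in each case. For 12 of the 69 genes, Pdia5, Ube2g1 and Edem2 among them, the filter was passed through the vehicle libraries alone. The largest falls took in partners of the genes above. Sil1, like Hyou1 a nucleotide exchange factor of BiP, had 13.5, 26.6 and 35.4 CPM with cisplatin, against 302, 229.8 and 384.9 CPM with vehicle, and fell by 3.61 ± 0.38 (adjusted p = 5.06e-05). Ero1lb, an oxidase that recharges protein disulfide isomerases and is rich in beta cells, had 162.4, 228.2 and 122.3 CPM with cisplatin, against 826.6, 1191 and 835.6 CPM with vehicle. It fell by 2.47 ± 0.31 (adjusted p = 0.000134). For both genes the groups lay far apart.

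Pdia5, a further protein disulfide isomerase, had 10.2, 0 and 7.51 CPM with cisplatin, against 39.1, 34.7 and 30.7 CPM with vehicle, and fell by 2.54 ± 0.72 (adjusted p = 0.0195). It was not called without vehicle library 1 (0.103), 2 (0.0585) or 3 (0.0513), and was -3.14 without cisplatin library 1. Ube2g1, a ubiquitin-conjugating enzyme of ER-associated degradation, had 3 counts with cisplatin, all in library 2, and 85 with vehicle, and was called lower (adjusted p = 0.024). Relative to library size it was 13.5-fold lower with cisplatin (exact 95% counting interval 4.46 to 66.7), and the call was lost without cisplatin library 3 (0.0639) or vehicle library 1 (0.13), 2 (0.0913) or 3 (0.0897). Its fitted log2 fold change, -3.70 ± 1.09, was -7.55 without cisplatin library 2. Ube2j2, a membrane-bound enzyme of the same class, had 132.8, 77 and 76.1 CPM with cisplatin, against 43.1, 46.7 and 40.9 CPM with vehicle, and rose by 1.13 ± 0.34 (adjusted p = 0.0268). Its call was lost without cisplatin library 1 (0.0716) or any vehicle library (0.0999, 0.0526 and 0.126 for 1 to 3), and on library totals (0.227). The remaining genes called lower were Txndc5, Fkbp9, Prkcsh, Edem2, Edem3, Rnf121, Creb3l2 and Mbtps1. Edem2 and Edem3, which belong to the same family as Edem1, thus fell where Edem1 rose. Eif2ak3, the gene of the sensor PERK, differed by 0.62 ± 0.35 and was not called.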

How the data were processed

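Counts were deposited by the authors as whole numbers per probe row and library in 1 table, and the unit was checked on its values. Tools listed in the submitters' processing notes are DESeq2 1.44.0, fastp 0.23.2 and STAR 2.7.10b, each without a role. Build and counting rules: not given in the sources used here. Rows that passed edgeR's filter for expression (minimum count 10) were scaled with TMM factors and tested in R 4.3.3 with edgeR 4.0.16 (robust quasi-likelihood F-test, treatment only, two-sided), with Benjamini-Hochberg adjustment over all 9381 rows. CPM values use TMM-scaled library sizes, and SE values are the absolute log2 fold change over the root of F. Levels are not compared between genes, since their oligonucleotides differ. P-values measure the spread between 3 libraries a group. No library pair agreed within sampling noise.

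The members and lists were chosen with earlier results of these data known. The text names, in each role, the most abundant member and up to 3 called members with the largest change, Hspa5, Hsp90b1, P4hb, Ppib, Sec61b, Herpud1, Xbp1, Ern1 and Atf6 whatever their values, up to 4 called rises and falls of the other ER genes, and minor rows whose call differs. Other members are given briefly to account for the list, and Edem2, Edem3 and Eif2ak3 were named after their values were seen.

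Both libraries of a mouse carry the same animal identifier in the labels. Deviations from the group means correlated at -0.116, 0.0336 and 0.219 within mice and at -0.227 to 0.168 between mice. Blocked values stand beside a result where they change its call, for the genes whose alternatives were followed gene by gene. Of the other ER genes 11 were called lower and 3 higher in the block fit, against 12 and 1 without the block. Alternatives were upper quartile or RLE factors, unscaled totals, no filter or one at a mean CPM of 10, limma-voom (limma 3.58.1), DESeq2 1.42.0, the mouse block, summed rows, thinned libraries, leaving out the 10 most abundant rows, and leaving out each library or mouse. GENCODE spans were added after seeing the data. Protein features were not analysed here.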

Additional observations from a re-analysis of the deposited data

How the results depend on the processing

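The counts moved with the scale of the libraries and with the libraries and mice left out. ER machinery genes called lower were 12 (27.9%) with DESeq2, 12 (27.9%) with limma-voom and 14 (31.8%) with the rows of each gene summed. In those fits 15%, 13.2% and 15.6% of everything tested were called lower. The number was 9 with the filter at a mean CPM of 10 and 9 with thinned libraries. With library totals alone, 459 rows in all were called higher and 2023 lower, 0 ER machinery genes higher and 17 lower, 0 of their rows higher and 23 lower, and 0 other ER genes higher. On that scale Dnajb9, Srp9, Ssr3 and Ddost changed sign, to -0.06, -0.06, -0.21 and -0.21. The number of other ER genes called higher, 1, was 0 with no filter, 3 with DESeq2, 4 with limma-voom and 3 with the mouse as a block, and 1 row of the ER machinery was called higher with no filter and 1 with the block. In the block fit 9 ER machinery genes were called lower and 1 higher; Ssr1 and Derl1 were lost, Pdia4 was gained, Srp9 was -0.63, and no other gene of the machinery changed its call. Creld2 was 0.01 with RLE factors and 0.01 with DESeq2, and Srp9 was -0.36 and Spcs1 -0.74 with limma-voom. With each library or mouse left out, rows called higher ranged from 424 to 1244 and lower from 581 to 1294, ER machinery genes called higher from 0 to 1 and lower from 1 to 12, their rows called higher from 0 to 2 and lower from 1 to 16, and other ER genes called higher from 0 to 2 and lower from 5 to 11. Values of uncalled genes that changed sign in these fits ranged from -0.21 to 0.15 for Creld2, -0.26 to 0.06 for Ppib, -0.49 to 0.98 for Sec61b, -0.32 to 0.11 for Rpn1, -0.22 to 0.14 for Calr, -0.04 to 0.72 for Dnajb9, -2.26 to 1.16 for Srp9, -0.77 to 0.04 for Sec61g, -1.54 to 0.08 for Ssr2, -0.08 to 0.66 for Ssr3, -0.29 to 1.30 for Spcs1, -0.51 to 0.01 for Spcs3, -2.37 to 0.13 for Derl2 and -0.81 to 0.31 for the minor row of Xbp1. No called gene of the machinery changed its sign in the alternatives that tested it, 18 for Ssr1 and 20 for each of the other 10. The cause of these changes was not tested. Fits without a mouse or library test fewer samples. Several translocon subunits, Ern1 and Atf6 had under 10 CPM in at least 1 library. The reason for these low values was not tested.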
